A study of Rattus norvegicus with 6 samples.

Results

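The kidney was examined for 9 genes that mark T and B lymphocytes in male Sprague Dawley rats on 2 diets. The genes were taken by name, namely Cd3e, Cd3g, Cd2, Lck, Cd4, Cd8a, Cd79a, Cd79b and Ptprc. The files list 8 of them among 17051 genes, and Cd79a was not analysed here. RNA sequencing was done on kidney tissue of 6 rats. Rats 61, 71 and 88 formed the AL group and ate standard powdered chow at will. The 3 rats of the HD group (rats 64, 67 and 69) had an amino acid mixture, composed like the hemoglobin molecule, mixed into the same chow. After a week on the diet, all rats went through surgery under isoflurane with an infusion of para-amino hippuric acid, so both groups share the anesthesia and the infusion. The part of the kidney used for sequencing is not given in the sources used here, and each rat was a library of its own. The question was whether lymphocyte genes differ between the diets, or whether they are high in single rats of the AL group only.

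T lymphocytes recognize antigen through a receptor that signals by way of the CD3 chains and the kinase LCK. CD4 marks helper and CD8 marks cytotoxic T cells. B lymphocytes signal through the chains CD79A and CD79B, and all white blood cells carry the phosphatase CD45, the product of Ptprc. A healthy kidney holds few lymphocytes between its tubules, together with many macrophages. In the rat, macrophages also carry CD4, so Cd4 and Ptprc are not confined to lymphocytes.

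The depth of the libraries ranged from 12499945 to 30466461 estimated counts, and the HD group held both the shallowest and the deepest library (rats 64 and 69). Rat 71 of the AL group stood apart from the other 5 rats in the lymphocyte genes, with the highest level of all 8 listed genes. It was the highest rat for 18.0% of the 11553 genes tested. The edgeR comparison of the lymphocyte genes is therefore given with and without rat 71. So are the counts of genes lower in HD in the T cell, cytotoxic, leukocyte, myeloid and medulla lists below. Other comparisons include rat 71 unless stated otherwise. Levels are CPM, counts scaled to a common library size with TMM normalization, which adjusts for libraries of different composition, and their 95% intervals (exact Poisson) cover counting error only. A gene was tested if any rat had 30 or more counts of it. This minimum was passed by 7 of the 8 listed genes, and Cd79b, with at most 20 counts, was not tested. Cd3e, Cd3g, Cd2 and Cd8a passed it only through rat 71, as did 0.623% of all tested genes. These 4 genes could therefore enter only by being high in an AL rat, and counts over the tested genes do not describe all lymphocyte genes. In bulk tissue, fewer cells of a type and less RNA per cell cannot be told apart.

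Cd3e and Cd3g encode the epsilon and gamma chains of CD3 and mark T cells most directly. They lie on the minus strand of chromosome 8 in genome build rn5, 16849 bases apart. Cd3g runs from 47892831 to 47898776 with 6 exons and Cd3e from 47915626 to 47926788 with 8 exons. Cd2, an adhesion receptor of T cells and natural killer cells, is listed on chromosome 2 from 223111198 to 223478957. This span of 367760 bases overlaps other listed genes, and the shortest of the 7 exons of Cd2 has 12 bases. No listed gene overlaps any of the other 7 lymphocyte genes. To show the sequence in front of the T cell genes, the start regions of these 3 genes and of Lck, the kinase that acts on CD3 and has 2 of them, are given, from 250 bases before to 50 bases after the gene start in RefSeq for build GRCr8, another build than that of the counts. The sequences run 5′ to 3′ on the gene's strand, and capitals mark the letters TGTGGT, the core bound by Runx factors, and AGGAAG, a core bound by Ets factors, on either strand.
Cd3e, chr8:54211721-54212020, minus strand: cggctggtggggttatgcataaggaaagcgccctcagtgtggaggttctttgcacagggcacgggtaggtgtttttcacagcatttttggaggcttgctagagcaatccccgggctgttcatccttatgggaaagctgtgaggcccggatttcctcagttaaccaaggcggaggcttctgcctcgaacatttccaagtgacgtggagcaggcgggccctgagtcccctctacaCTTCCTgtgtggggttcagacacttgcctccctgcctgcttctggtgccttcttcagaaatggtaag
Cd3g, chr8:54183869-54184168, minus strand: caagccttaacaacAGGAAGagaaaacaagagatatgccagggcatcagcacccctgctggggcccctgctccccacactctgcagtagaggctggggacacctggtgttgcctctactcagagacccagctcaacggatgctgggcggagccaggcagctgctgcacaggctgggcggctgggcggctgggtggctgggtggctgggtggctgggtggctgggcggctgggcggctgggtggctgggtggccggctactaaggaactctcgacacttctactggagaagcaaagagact
Cd2, chr2:191412610-191412909, minus strand: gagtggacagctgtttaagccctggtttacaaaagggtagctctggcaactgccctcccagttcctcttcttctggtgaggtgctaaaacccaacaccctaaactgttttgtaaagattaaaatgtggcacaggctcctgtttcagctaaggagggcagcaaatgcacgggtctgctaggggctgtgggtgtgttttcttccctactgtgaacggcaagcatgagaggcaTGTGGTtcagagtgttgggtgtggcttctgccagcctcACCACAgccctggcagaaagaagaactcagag
Lck, chr5:147183601-147183900, minus strand: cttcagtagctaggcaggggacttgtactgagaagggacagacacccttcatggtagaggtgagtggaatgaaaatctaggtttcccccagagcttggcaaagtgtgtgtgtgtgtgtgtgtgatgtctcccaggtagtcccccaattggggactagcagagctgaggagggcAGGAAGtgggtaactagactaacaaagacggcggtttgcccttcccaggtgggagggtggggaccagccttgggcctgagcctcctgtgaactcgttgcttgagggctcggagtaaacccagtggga
Lck, chr5:147201218-147201517, minus strand: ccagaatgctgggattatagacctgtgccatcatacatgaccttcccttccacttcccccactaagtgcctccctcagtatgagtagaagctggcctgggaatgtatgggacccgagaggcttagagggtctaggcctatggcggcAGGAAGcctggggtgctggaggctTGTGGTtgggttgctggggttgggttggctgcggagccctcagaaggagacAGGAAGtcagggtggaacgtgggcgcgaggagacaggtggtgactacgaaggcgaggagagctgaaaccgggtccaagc
Cd3e and Cd3g each held AGGAAG once, and Cd2 held TGTGGT at 2 places. Of the Lck regions, the first held AGGAAG once, and the second held both, TGTGGT once and AGGAAG at 2 places. Over all 33469 start regions of this length, 17.3% held TGTGGT and 34.5% held AGGAAG. Of the 7 start regions found for 6 of the lymphocyte genes, 2 held TGTGGT and 5 held AGGAAG. A match of letters is a description and does not show that a factor binds there.

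Cd3e was low in every kidney. The AL rats 61, 71 and 88 were at 0.556, 1.89 and 0.529 CPM. Of the HD rats, 64 and 67 had 0 counts, which allows up to 0.313 and 0.184 CPM by the 95% interval, and rat 69 was at 0.192 CPM. All 3 AL rats were thus above all 3 HD rats, and rat 71 was 3.39 times the next highest rat. Behind these levels are 7, 34 and 8 counts in rats 61, 71 and 88 and 6 counts in rat 69. Cd3g followed the same order of groups, with 0.874, 2.94 and 1.12 CPM in rats 61, 71 and 88. In the HD group it was at 0.0849 CPM in rat 64, a single count, 0.350 in rat 67 and 0.384 in rat 69. The groups did not overlap, and rat 71 was 2.61 times the next highest rat.

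Cd2 was at 0.953 CPM in rat 61, 1.77 in rat 71 and 0.529 in rat 88. In the HD group rat 64 had 0 counts, rat 67 was at 0.300 CPM and rat 69 at 0.448. The groups did not overlap, but the interval of rat 88 (0.229 to 1.04 CPM) held the values of rats 67 and 69. Lck encodes the kinase that starts signaling from CD3 and is annotated with 12 exons on chromosome 5, from 151480221 to 151491490. It was at 1.99, 4.93 and 2.58 CPM in rats 61, 71 and 88, and at 0.424, 0.849 and 1.5 CPM in rats 64, 67 and 69. Again every AL rat was above every HD rat. The 2 exact permutation tests gave *P* = 0.1 (two-sided), the smallest value that 3 against 3 rats allow.

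**Figure D1:**
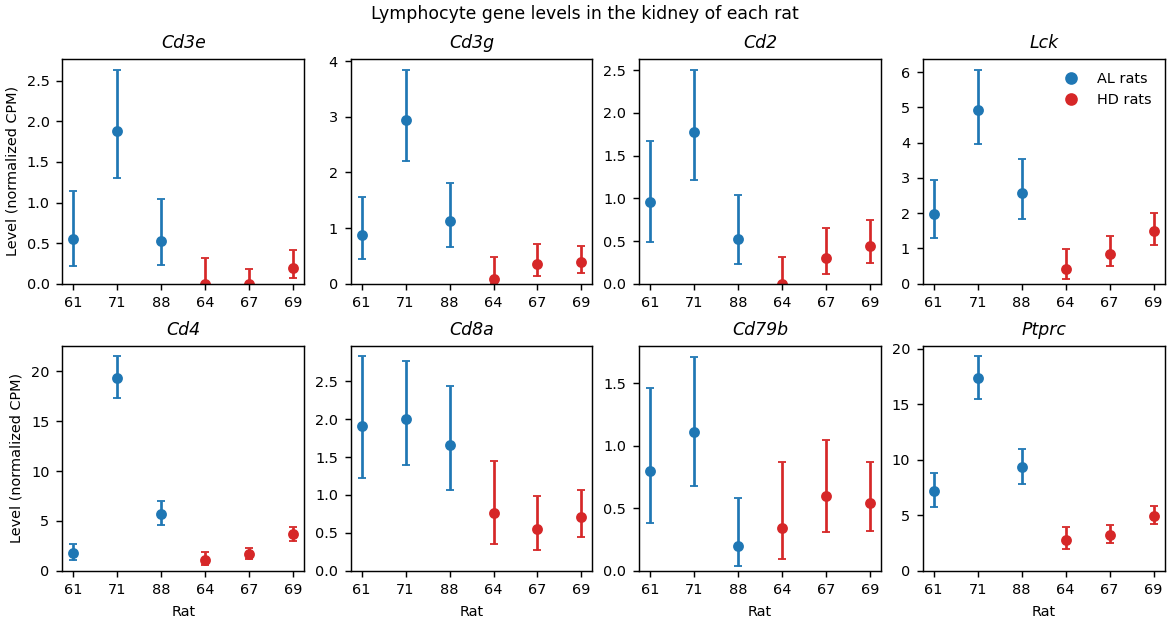
Level of each listed lymphocyte gene in each rat (y axis, TMM-normalized CPM, a scale of its own for each gene, x axis, rat number), with AL rats in blue, HD rats in red and bars for the 95% Poisson interval of the count. Rat 71 is the highest rat in all 8 panels, and the 3 AL rats lie above the 3 HD rats in 6 panels, not in Cd4 and Cd79b.

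Cd8a and Cd4, of which Cd4 is carried by rat macrophages as well as T cells, behaved unlike each other. Cd8a, on chromosome 4 from 164017633 to 164021870, was at nearly the same level in all 3 AL rats, with 1.91 CPM in rat 61, 1.99 in rat 71 and 1.65 in rat 88. The HD rats were at 0.764, 0.550 and 0.703 CPM (rats 64, 67 and 69). Rat 71 was only 1.05 times the next highest rat, so the group means of 1.85 ± 0.177 CPM (SD, *n* = 3) in AL and 0.672 ± 0.110 (SD, *n* = 3) in HD did not rest on it. Cd4, on the same chromosome from 224400830 to 224425954, was at 1.75 CPM in rat 61, 19.3 in rat 71 and 5.69 in rat 88. In the HD group it was at 1.1, 1.65 and 3.65 CPM in rats 64, 67 and 69. Rat 61 lay below rat 69, so the groups overlapped, and rat 71 was 11.1 times rat 61 of its own group.

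The balance of Cd8a and Cd4 can be read within a rat, where depth and normalization cancel. It is not a ratio of T cell subsets, because macrophages also carry CD4. Cd8a made up 52.2% of the summed Cd8a and Cd4 counts in rat 61 (exact binomial 95% interval 36.9 to 67.1), 9.35% in rat 71 (6.64 to 12.7) and 22.5% in rat 88 (15.1 to 31.4). In the HD group the shares were 40.9% in rat 64 (20.7 to 63.6), 25.0% in rat 67 (13.2 to 40.3) and 16.2% in rat 69 (10.4 to 23.5). The intervals of rats 61 and 71 are far apart, although both belong to the AL group, and the group means were 28.0% ± 21.9 and 27.4% ± 12.5 (SD, *n* = 3 each, two-sided exact permutation test, *P* = 1). Cd4 itself was 52.7% of the summed Cd4 and Ptprc counts in rat 71 and 19.6% in rat 61, and between 28.3% and 42.4% in the other 4 rats. Cd4 is shorter than Ptprc, so this share is read only between rats. Per length, as the authors' TPM, Cd4 was above Ptprc in every rat but rat 61.

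B lymphocytes left a weaker trace. Cd79b, on chromosome 10 from 94248655 to 94251801, was at 0.794 CPM in rat 61, 1.11 in rat 71 and 0.199 in rat 88, the lowest rat of all. The HD rats 64, 67 and 69 were at 0.340, 0.600 and 0.544 CPM, inside the range of the AL group. These are between 3 and 20 counts in a rat. When genes with low counts were kept in the fit, the log2 fold change of Cd79b (HD minus AL) was -0.46 with a standard error of 0.64 (edgeR, adjusted *P* = 0.847). Relative to Ptprc, Cd79b was not higher in the AL group either. It made up 10.0%, 6.01% and 2.08% of the summed Cd79b and Ptprc counts in rats 61, 71 and 88, and 10.8%, 15.6% and 9.88% in rats 64, 67 and 69 (two-sided exact permutation test, *P* = 0.2).

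Ptprc was detected with at least 33 counts in every rat. It was at 7.15 CPM in rat 61, 17.3 in rat 71 and 9.33 in rat 88, against 2.80, 3.25 and 4.96 CPM in rats 64, 67 and 69. Every AL rat was above every HD rat, also by the 95% intervals except for rat 61, whose lower bound of 5.75 CPM was just below the upper bound of rat 69 (5.80 CPM). The 4 T cell genes Cd3e, Cd3g, Cd2 and Lck together made up 37.9%, 39.9% and 33.8% of their sum with Ptprc in rats 61, 71 and 88. In rats 64, 67 and 69 the shares were 15.4%, 31.6% and 33.8%. Rat 71 did not stand apart in this share. Rat 64 was the lowest, with 6 counts of these 4 genes, and its interval (5.86% to 30.5%) overlapped that of every rat but rat 71. The group means of 37.2% ± 3.12 and 26.9% ± 10.0 (SD, *n* = 3 each) had *P* = 0.1 in the two-sided exact permutation test.

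**Figure D2:**
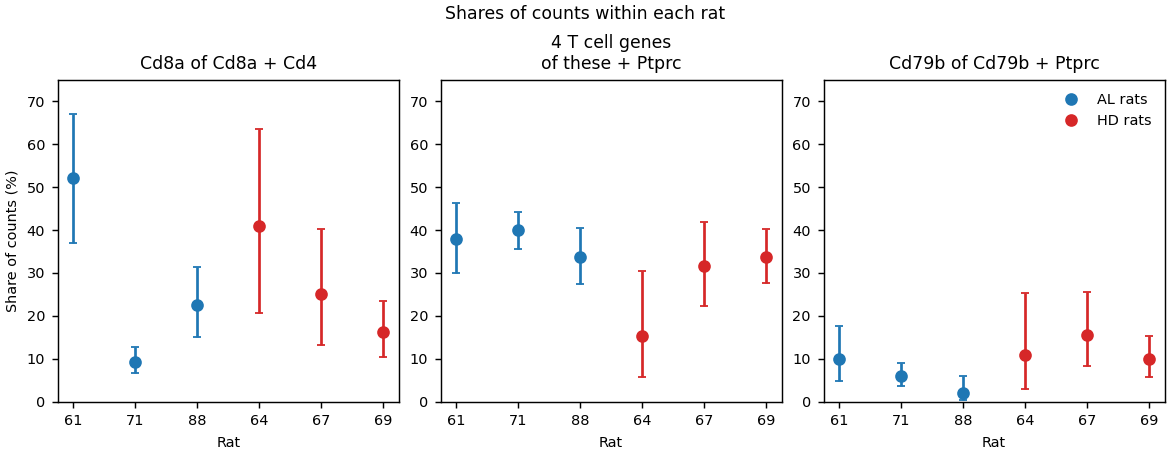
Share of counts within each rat (y axis, percent, x axis, rat number) for Cd8a among Cd8a and Cd4, for Cd3e, Cd3g, Cd2 and Lck among these genes and Ptprc, and for Cd79b among Cd79b and Ptprc, with exact binomial 95% intervals. The Cd8a share runs from 9.35% in rat 71 to 52.2% in rat 61, both of the AL group, while the T cell share is between 31.6% and 39.9% in all rats but rat 64.

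Ptprc is spliced into forms that differ in 3 variable exons, and lymphocyte types differ in which of these they keep. B cells carry the form with all of them, and activated T cells tend to the form with none. The files list 5 forms on chromosome 13, from 60094038 to 60205338, with variable exons of 126, 147 and 123 bases. RSEM's estimated count put all Ptprc reads of 5 rats on the form with none of these exons, up to 313 counts in rat 71. In rat 61 it put 76.8 of its counts on the form with the third exon alone and 13.2 on the form with none. The deposited posterior mean spread the same reads over all 5 forms. It gave the form with none 182 counts in rat 71, 76.7 in rat 88 and 65.6 in rat 69, but only 22.7 in rat 61, 18.1 in rat 67 and 8.43 in rat 64. The form with all variable exons had between 4.79 and 12.6 posterior counts in a rat. Because the 2 estimates divide the reads so differently, the forms were not compared between the diets.

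**Figure D3:**
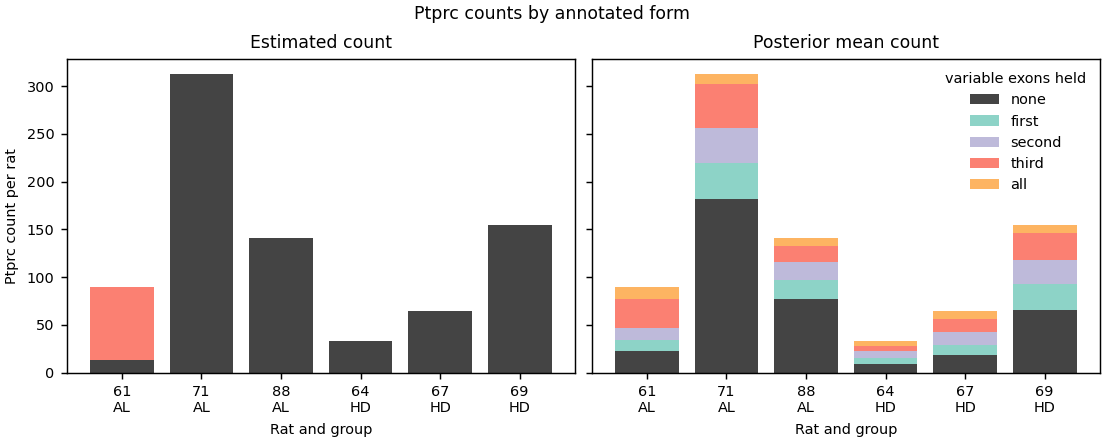
Ptprc counts of each rat (x axis, rat and group) divided by the annotated form, that is by the variable exons it holds, as RSEM's estimated count (left) and its posterior mean (right). In the estimated counts only rat 61 has reads on a form with a variable exon, whereas the posterior mean puts reads on all 5 forms in every rat.

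Compared one by one, the rats did not divide into 1 high rat and 5 alike. All 8 genes together were at 16 CPM in rat 61 (95% interval 13.8 to 18.3), 51.3 in rat 71 (48.1 to 54.7) and 21.6 in rat 88 (19.4 to 24.1). The HD rats were at 5.52 CPM in rat 64 (4.26 to 7.03), 7.54 in rat 67 (6.39 to 8.85) and 12.4 in rat 69 (11.2 to 13.7). Most of the counts in these sums are of Cd4 and Ptprc. Cd3e, Cd3g, Cd2 and Lck alone summed to 4.37 CPM (3.29 to 5.69) in rat 61 and 4.76 (3.73 to 6.0) in rat 88. Rat 71 was at 11.5 CPM (10.0 to 13.2), and rat 69, the highest HD rat, at 2.53 (2.0 to 3.15). Rats 61 and 88 thus lay above the interval of each HD rat in the T cell sum, while rat 71 lay far above both of them. Rat 71 exceeded the highest HD rat in 8 of the 8 listed genes, and rats 61 and 88 each did so in 7. Rat 64 was the lowest rat in 6 of 8 genes, for Cd3e together with rat 67 at 0 counts, and it was the lowest in 21.1% of all tested genes. Rat 69 was above both other HD rats in 6 of 8 genes, so the spread was wide in the HD group as well.

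The test of the diets gave lower values in the HD group for all 7 tested genes. Of these, Cd3e, Cd3g, Cd2 and Cd8a were tested only through AL rat 71, as were 0.623% of all tested genes. Counts and medians over the 7 genes are therefore not a like comparison with those over all tested genes. With edgeR's quasi-likelihood test, no gene passed an adjusted *P* value of 0.05 (0 of 7, and 0.00% of the 11553 tested genes, 48.7% of which had lower values in HD), and the adjusted *P* values of the 7 genes ranged from 0.368 to 0.472. By the unadjusted value of the same test, 6 of the 7 were lower in HD at the 0.05 level, the exception being Cd2, against 5.94% of all tested genes. None was higher, against 4.66% of all tested genes. Their median log2 fold change was -1.93, and that of all tested genes was 0.0067. Every AL rat was above every HD rat for 6 of the 8 listed genes, against 7.01% of the tested genes. DESeq2, the tool of the study, placed 1 of the 7 genes past the adjusted threshold, Ptprc (log2 fold change -1.62, adjusted *P* = 0.0133), and 0.770% of all tested genes were past it and lower in HD. By its unadjusted value, 7 of the 7 genes were lower in HD at the 0.05 level, against 6.77% of all tested genes, and by that of limma-voom 5 were, against 5.15%.

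The size of the difference was largest for Cd3e. Its log2 fold change was -3.45 with an SE of 1.06 (edgeR, adjusted *P* = 0.406), a value that depends on the 2 HD rats without a count. Cd3g had -2.47 (standard error 0.69), Cd4 -2.03 (0.83), Cd2 -1.93 (0.83), Lck -1.71 (0.54), Ptprc -1.61 (0.39) and Cd8a -1.46 (0.37). Without rat 71, all 7 genes were still lower in HD and their median was -1.36, but only 3 had an unadjusted *P* value below 0.05 (edgeR), against 3.57% of all tested genes. These were Ptprc with -1.15 (standard error 0.33), Cd8a with -1.40 (0.46) and Cd3g with -1.74 (0.69), with edgeR's adjusted *P* values from 0.581 to 0.636. Cd4 came down the most, to -0.78 (standard error 0.67, edgeR, adjusted *P* = 0.821), and it also missed the unadjusted threshold when rat 64 or rat 67 was left out. The values of Cd8a, -1.46 with and -1.40 without rat 71, were the closest of the 7 genes.

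**Figure D4:**
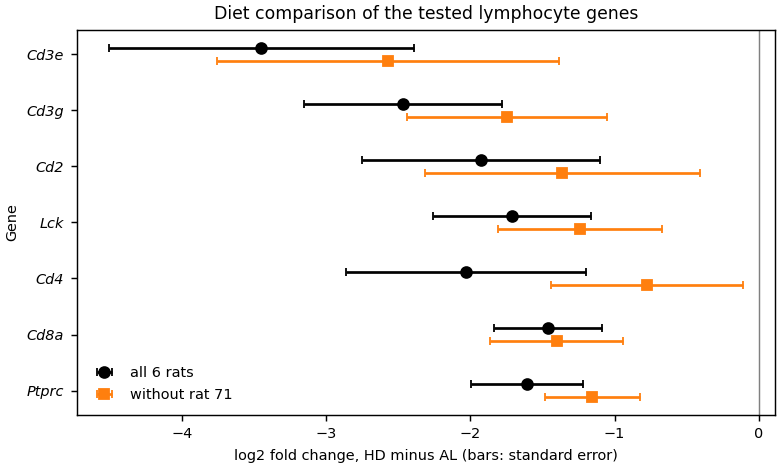
Log2 fold change (x axis, HD minus AL, bars for the standard error) of the 7 tested lymphocyte genes (y axis) from edgeR with all 6 rats (black) and without rat 71 (orange). All values are below 0 in both fits, Cd4 goes from -2.03 to -0.78, and Cd8a stays at -1.46 and -1.40.

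To set the levels of different genes side by side, the authors' TPM was used, which is per length. In the AL group the order was Cd4 (8.70 ± 9.41), Cd3g (4.71 ± 3.58), Ptprc (3.90 ± 2.20), Lck (2.67 ± 1.53), Cd8a (2.17 ± 0.316), Cd3e (1.64 ± 1.42), Cd2 (1.56 ± 1.02) and Cd79b (0.953 ± 0.675 TPM, SD, *n* = 3 each). No neighbors in this order differed by more than the larger of their SDs. In the HD group Cd4 (1.91 ± 1.31 TPM) and Ptprc (1.19 ± 0.443) again stood high, and Cd3e was last (0.103 ± 0.179 TPM, SD, *n* = 3 each).

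Further genes of the same cells were taken from lists of known markers. The list of other T cell genes held 24 listed genes, of which 11 could be tested and 3 of these only through rat 71. All 11 were lower in HD with a median log2 fold change of -1.0, and 4 of the 11 had an unadjusted *P* value below 0.05 in edgeR, where 5.94% of all tested genes were lower at this level. They included Zap70, the kinase that binds the phosphorylated CD3 chains, Cd247, the zeta chain of the receptor, and the adaptor Lat. Zap70 was at 1.03, 2.27 and 1.39 CPM in rats 61, 71 and 88 and at 0.340, 0.250 and 0.320 in rats 64, 67 and 69. Its log2 fold change was -2.36 (standard error 0.50, edgeR, adjusted *P* = 0.368) and -1.99 without rat 71, and with DESeq2 its adjusted *P* was 0.0473. Zap70 and Cd247 were among the genes that reached 30 counts only in rat 71, with 41 and 40 counts there. Lat had 3.20 ± 0.925 CPM in AL and 1.51 ± 0.290 in HD (SD, *n* = 3 each). Thy1 and Sit1, the genes of the list with the highest TPM, had unadjusted *P* values of 0.147 and 0.843 in edgeR, and Sit1 was at 7.92 ± 0.883 CPM in AL and 7.72 ± 0.679 in HD (SD, *n* = 3 each). Without rat 71, 2 genes of the list were lower in HD at this level, against 3.57% of all tested genes. Foxp3, the factor of regulatory T cells, was not tested and was at 0.831 CPM in rat 71 and at most 0.300 in the other rats. Other untested genes of the list were highest in rat 71 too, such as Cd3d with 1.22 CPM, but not all were. Bcl11b was highest in HD rat 64, with 0.679 CPM against 0.610 in rat 71. Cd28 was highest in rat 61, with 0.318 CPM against 0.111 in rat 71.

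Genes of cytotoxic lymphocytes gave values that were not highest in rat 71 alone. Only 3 of 17 listed genes could be tested, 2 of them through rat 71 alone, and all 3 were lower in HD at an unadjusted *P* value below 0.05 (edgeR) with and without rat 71. Ccl5, a chemokine of activated T and natural killer cells, was at 2.22, 1.77 and 4.04 CPM in rats 61, 71 and 88 and at 0.764, 0.849 and 0.831 in rats 64, 67 and 69. Il2rb, a subunit of the interleukin-2 receptor, was at 1.91, 1.88 and 0.860 CPM against 0.424, 0.300 and 0.384. Klrk1, the receptor NKG2D, was at 1.43, 2.11 and 0.728 CPM against 0.255, 0.400 and 0.448. Every AL rat was above every HD rat in all 3 genes, against 7.01% of all tested genes. Rat 71 was the highest rat in 1 of the 3. The granzyme and perforin genes of the list were too low to test.

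Of the 20 listed genes of the B cell list 7 were tested, 4 lower and 3 higher in HD, with a median log2 fold change of -0.16, and none was lower at an unadjusted *P* value below 0.05 in edgeR, while DESeq2 gave 1. Whether this list differs from the T cell list was not tested. Cd37, a membrane protein of B cells and other leukocytes, was at 1.59, 7.04 and 4.63 CPM in rats 61, 71 and 88 and at 0.764, 1.65 and 2.49 in rats 64, 67 and 69. Cd72, a receptor of B cells, was too low to test, with 1.59, 1.55 and 1.19 CPM against 0.170, 0.300 and 0.863, every AL rat above every HD rat. The B cell surface gene Ms4a1 was at most 0.238 CPM in any rat. Cr2, the complement receptor of B cells and follicular dendritic cells, had 0 counts in 5 rats and 1 count in rat 71. Irf4, a transcription factor of lymphocytes and plasma cells, was the only gene of the list with an unadjusted *P* value below 0.05, and it was higher in HD. It was at 3.49, 3.82 and 4.70 CPM in rats 61, 71 and 88 and at 8.49, 9.49 and 13.1 in rats 64, 67 and 69 (log2 fold change 1.37, standard error 0.25, edgeR, adjusted *P* = 0.327, DESeq2, adjusted *P* = 0.00180), the opposite direction to the T cell genes. Chemokines and other genes of lymphoid tissue (7 of 11 listed genes tested) had no unadjusted *P* value below 0.05. Cxcl13, which draws B cells into follicles, was at 10.1 CPM in rat 71 and between 0.715 and 1.79 in the other 5 rats. Rat 71 was the highest rat for 5 of the 7 tested genes of this lymphoid tissue list, Cxcl13 among them, but not for Ccl21 and Lyve1. Ccl21 was highest in HD rat 69, and Lyve1 was highest in AL rat 88. Rat 71 had at most 3 counts of Ms4a1 or Cr2, but 2 of the 7 tested genes of the B cell list, Cd37 among them, were highest there. The B cell score, which weights each tested gene alike, was 0.26 in rat 71 and 0.25 in rat 69. In the other rats it was between -0.23 and -0.02.

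Most tested genes of the list shared by all leukocytes, and all tested genes of myeloid cells, were lower in HD as well. Of 17 tested genes of the leukocyte list 16 were lower in HD and 8 of them at an unadjusted *P* value below 0.05 in edgeR, with a median of -1.21, but without rat 71 only 2 were. All tested genes had 5.94% lower at this level, and 3.57% without rat 71. Of 16 tested myeloid genes all 16 were lower, 13 of them at an unadjusted *P* value below 0.05, with log2 fold changes of these 13 from -2.30 to -1.02, and 7 without rat 71. DESeq2 placed 4 of the 16 past the adjusted threshold of 0.05, namely Lyz2, Aif1, Fcer1g and Clec10a. Lyz2, the lysozyme of macrophages, was at 92.2, 341 and 227 CPM in rats 61, 71 and 88 and at 26.7, 37.5 and 68.8 in rats 64, 67 and 69. Emr1, the macrophage surface gene also called F4/80, was at 18.6 CPM in rat 71 and between 1.02 and 4.10 in the others. The summed level of the 19 listed myeloid genes ranged from 179 to 577 CPM in AL and from 69.7 to 163 in HD. The groups overlapped, however, in the scores, which weight each tested gene alike. The myeloid score was -0.19 to 1.24 in AL and -1.08 to -0.07 in HD. The leukocyte score was -0.04 to 0.96 in AL and -0.86 to 0.02 in HD. Rat 61 had the lowest of the AL sums, and it also had the lowest Cd4 of its group. The part of macrophages in the Cd4 and Ptprc values was not tested.

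Genes of other kidney parts and of fat also differed between the rats. The 7 podocyte genes were all higher in HD, whereas 48.7% of all tested genes were lower. The summed level of the podocyte genes was 56.6 to 132 CPM in AL and 197 to 422 in HD. The genes listed for the medulla (8 tested) had 5 lower genes at an unadjusted *P* value below 0.05 in edgeR, against 5.94% of all tested genes. Without rat 71 it was 4, against 3.57%. The list summed to between 10464 and 10634 CPM in AL and between 8635 and 11327 in HD, and these sums overlapped. Aqp1, the 1 gene of the list that was higher in HD, had the highest level of the 8 and so weighed most in these sums. Whether its reads came from the medulla alone was not tested. It was at 3833 ± 66.1 CPM in AL and 4451 ± 264 in HD (SD, *n* = 3 each). The medulla score, which weights each gene alike, was 0.24 to 0.63 in AL and -0.64 to -0.08 in HD. By this score every AL rat was above every HD rat, as for the lymphocyte genes. The proximal tubule score was -0.31 to -0.06 in AL and -0.01 to 0.40 in HD, every AL rat below every HD rat. The perirenal fat genes summed to 173 to 298 CPM in AL and 171 to 478 in HD, with rats 67 and 69 the highest. Their part in the lymphocyte values was not tested.

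**Figure D5:**
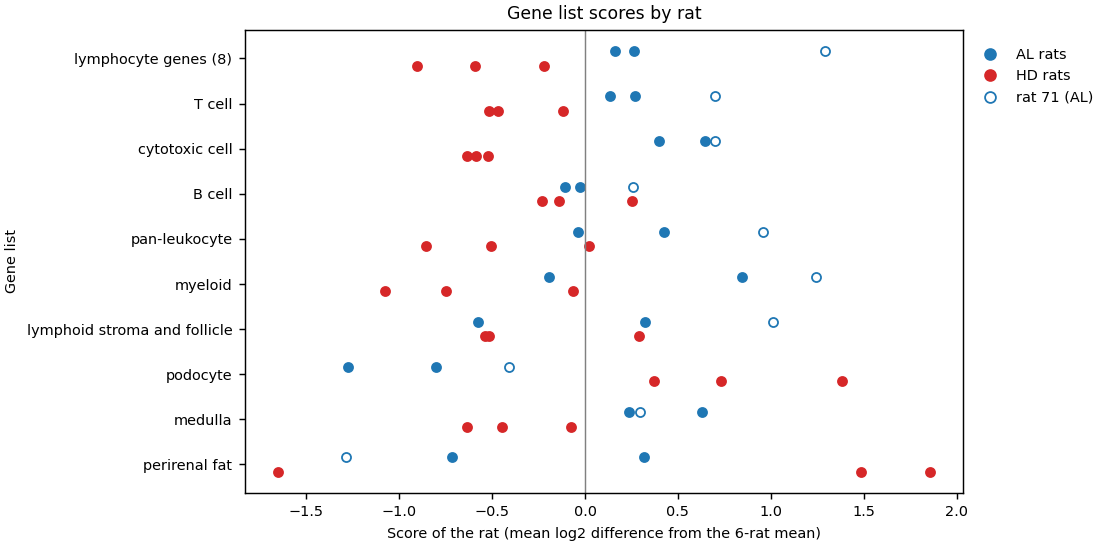
Score of each rat (x axis, the log2 distance of a gene from its average in the 6 rats, averaged over the list) for the 8 listed lymphocyte genes and the tested genes of 9 lists (y axis), with AL rats in blue, HD rats in red and rat 71 as an open circle. The lymphocyte, T cell, cytotoxic and medulla scores of all AL rats lie above those of all HD rats. The B cell, pan-leukocyte and myeloid scores overlap, and podocyte scores lie the other way round.

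The score of a rat averages, over genes, the log2 distance from the gene's 6-rat average. Over the 8 lymphocyte genes it was 0.16 in rat 61, 1.29 in rat 71 and 0.26 in rat 88, and -0.90, -0.59 and -0.22 in rats 64, 67 and 69. The tested genes whose log2 level followed this score most closely over the 6 rats (Pearson's *r* as a measure of likeness only, with all points sharing the same libraries) included LOC498276 (0.999), the chemokine receptor gene Cxcr4 (0.990), Slc15a3 (0.986), Vav1 (0.985), Irf8 (0.983) and Slamf8 (0.983). Vav1, a signaling protein of blood cells, was at 4.27 CPM in rat 71, 1.43 and 1.92 in rats 61 and 88 and at most 1.09 in the HD rats. Irf8, a factor of myeloid and B cells, was at 4.93 CPM in rat 71, 1.51 and 2.05 in rats 61 and 88 and at most 1.60 in HD. The other 4 of the 10 closest genes were Dot1l, Mlxipl, Fam212a and MGC105649. An *r* above 0.9 was reached by 259 (2.24%) of the 11546 tested genes outside the lymphocyte genes, so such likeness is not particular to the 10 closest genes.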

How the data were processed

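Kidney RNA of 6 male Sprague Dawley rats was poly(A)-selected and sequenced as 1 library per rat, 3 of the AL and 3 of the HD group, grouped by the diet in the labels. The authors quantified transcripts with RSEM 1.1.15 (per the labels) on the University of California Santa Cruz gene definitions for rn5 and deposited an unnormalized estimated count (expected count), its posterior mean and TPM, which RSEM scales to length and depth. RSEM was run with default parameters, which make no use of strand, so reads of a gene and an antisense partner cannot be told apart.

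Estimated counts were summed per gene and rounded. The 11553 genes that reached 30 counts in any rat were fitted with edgeR 4.0.16 (R 4.3.3, quasi-likelihood test, TMM, diet as the only factor) and adjusted by the Benjamini-Hochberg method. DESeq2 1.42.0 and limma 3.58.1 (voom) were alternatives, as were other scalings and filters, posterior mean counts and leaving out each rat with the set of genes kept. Scores used log2(CPM + 0.5). Permutation tests were exact over 10 divisions of the rats. Shares and counts have 95% exact intervals from scipy 1.17.1, and figures were drawn with matplotlib 3.10.9. Depth ranged from 12499945 to 30466461 counts, so 3 counts correspond to between 0.0959 and 0.255 CPM. The labels do not pair rats between the groups.

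The lymphocyte genes and the lists were chosen with earlier results of these data known. The text names all lymphocyte genes, the 10 genes closest to their score and, of each list, genes with an unadjusted *P* value below 0.05 or the highest TPM, the rest being given as counts and ranges. Some genes of the lists are not reported here. Foxp3, Ms4a1, Cr2, Cxcl13, Emr1, Cd37, Cd72 and Slc4a1 were named for their role after their values were seen. Cd3d, Bcl11b, Cd28, Ccl21, Lyve1, Ptpn6 and Itgb2 were also named after their values were seen, to show the spread within their lists.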

Additional observations from a re-analysis of the deposited data

How the results depend on the processing

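The number of lymphocyte genes lower in HD at an unadjusted *P* value below 0.05 was 6 in the edgeR fit and ranged from 3 to 7 when each rat was left out, with 3 without rat 71. With a count of at least 10 required in every rat it was 2, because Cd4 and Ptprc were the only lymphocyte genes left. No alternative gave a log2 fold change above 0 for any of the 7 genes. For Cd3e the fit without rat 69 gave -6.98, a value set by 0 counts in both remaining HD rats.

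Over all genes, edgeR placed 0 past the adjusted threshold of 0.05, DESeq2 182, and edgeR without the filter on low counts 2, or from 0 to 4 with a rat left out. At an unadjusted *P* value below 0.05 it was 1224, and from 605 to 1793 with a rat left out. Counts of genes lower in HD went from 4 to 8 in the T cell list, from 0 to 2 in the B cell list and from 3 to 5 in the cytotoxic list without the filter on low counts. DESeq2 gave 1 in the B cell list. With at least 10 counts in every rat, the cytotoxic list had 0 and the leukocyte list 4. With a rat left out, the counts ranged from 2 to 5 in the T cell list, 0 to 1 in the B cell list, 2 to 12 in the leukocyte list and 6 to 14 in the myeloid list, and the cytotoxic list had 3 each time. The leukocyte list was at 2 without rat 71, 5 without rat 64 and 4 without rat 67, and the myeloid list at 7, 6 and 8. Apart from the loss of genes under the stricter filter, the cause was not tested.

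The score of rat 64 was -1.45 with a pseudocount of 0.1 and -0.48 with 2. In all 7 alternatives of the score rat 71 was the highest rat and the groups did not overlap, and rats 61 and 88 changed places without Ptprc and Cd4. No paired analysis was possible because the labels number no replicates. Depth limits Cd3e, Cd2, Cd79b and Cd8a, with at most 36 counts in a rat. It also limits Cd3g, with at most 12 counts in an HD rat.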

Other observations

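Markers of tissues beside the kidney were read in the same fit. The adrenal list had 1 tested gene of 6, with summed levels of 5.76 to 6.51 CPM in AL and 4.16 to 6.25 in HD. The 5 urothelial genes of the renal pelvis had no unadjusted *P* value below 0.05 in edgeR and summed to 20.1 to 52.4 CPM in AL and 24.7 to 64.2 in HD, highest in rats 71 and 69. The red cell genes summed to 1411 to 1666 CPM in AL and 1392 to 2356 in HD. Of these, Hba1 and Hba2 had log2 fold changes of 0.72 and 0.85, whereas Slc4a1, the anion exchanger that kidney intercalated cells also make, had -0.56. Of the 8 proximal tubule genes 7 were higher in HD, whereas 48.7% of all tested genes were lower. Of the 7 higher genes, 3 had an unadjusted *P* value below 0.05 in edgeR, against 4.66% of all tested genes higher at this level. The list summed to 13272 to 15500 CPM in AL and 14292 to 19027 in HD.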
